A study of Mus musculus with 4 samples.

Results

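The genes examined here encode the proteins that carry metabolites across the inner mitochondrial membrane, the pores of the outer membrane and the machinery that brings proteins into the organelle. They were chosen by name, as all probes whose gene symbol in the platform annotation begins with Slc25a, Timm or Tomm or is Vdac1, Vdac2 or Vdac3. This rule took 65 of the 16593 genes named on the array, with 97 of its 25697 probes: 57 probes of 39 carrier genes, 29 probes of 16 Timm genes, 8 probes of 7 Tomm genes and 3 probes of the 3 channel genes. Levels were measured in NIH-3T3 cells, an immortalized line of mouse embryonic fibroblasts, in 2 groups of 2 samples. Control cells were compared with cells to which microvesicles, small membrane-bound particles purified from the medium of cultured cardiomyocytes, had been transferred. Per the labels, the cells of both groups were fibroblasts of this line kept in Claycomb medium, and all 4 samples were total RNA. Such bulk RNA cannot tell fewer cells with a transcript from less of it per cell. The labels give no time, no microvesicle dose and no word on whether the replicates were separate cultures, so the p-values below rest on the spread between the samples at hand, and that spread may be a technical one. The 4 arrays lay on 1 chip, with each group in places of its own, so that the place on the chip and the treatment cannot be told apart.

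As background, the inner mitochondrial membrane is closed to most solutes, and the Slc25a carriers, which are built of repeated membrane-spanning segments, exchange nucleotides, phosphate, amino acids, carboxylates, acylcarnitines and cofactors across it. The Vdac channels make the outer membrane permeable to the same small molecules. Nearly all mitochondrial proteins are made in the cytosol and enter through the TOM complex of the outer membrane. From there the TIM23 complex with its motor takes proteins with a cleavable presequence into the matrix, and the small Tim chaperones of the intermembrane space pass carriers and other hydrophobic proteins to the TIM22 complex. Many carriers are themselves substrates of the Timm and Tomm proteins considered beside them.

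The arrays were dim, with a median brightness of 39.9 to 41.2 on the 4 arrays and 3757 to 5272 probes detected, that is, brighter than the negative controls with a detection p under 0.05. A probe was kept for testing when it was detected on both arrays of at least 1 group, which held for 3762 probes (14.6%). The cells carried the transcripts of their labelled type: 8 of the 13 fibroblast markers on the array, among them Vim, Col1a2, Col3a1, Sparc and Thy1, were detected on all 4 arrays, while Col1a1 and Pdgfra were detected on none. Of 27 cardiomyocyte markers 20 were detected on no array, and only Tnnc1 was detected on all 4. The summed signal of the cardiomyocyte probes was 1365 and 1378 in controls and 1304 and 1345 with microvesicles, and that of the fibroblast probes 3157 and 5640 in controls and 3773 and 2230 with microvesicles. The part of these markers in the results below was not tested.

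Of the 97 probes, 22 were kept (22.7%, against 14.6% of all probes), covering 17 genes. They were 11 of 57 carrier probes, 10 of 29 Timm probes, 1 of 8 Tomm probes and 0 of 3 Vdac probes. On no array were 59 of the 97 detected. A further 16 were detected on 1 or 2 arrays without reaching both arrays of a group. By array, 28 of the 97 were detected on each control, 25 on microvesicle replicate 1 and 21 on microvesicle replicate 2. Of the 22 kept probes, 17 were detected on all 4 arrays, 3 (second probes of Timm8b and Timm9, and the probe of Slc25a18) on both controls and neither microvesicle array, and 0 the other way round. Among all kept probes the share detected on both controls and neither microvesicle array was 8.59%, and the reverse share was 3.35%.

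**Figure D1:**
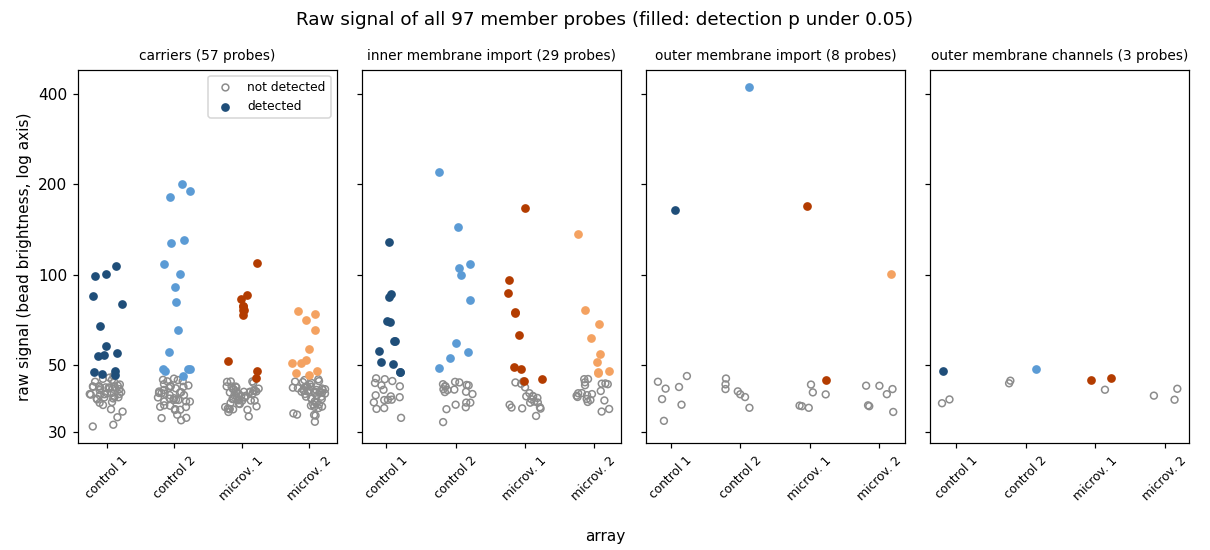
Raw bead brightness (log axis) of all 97 probes on each of the 4 arrays, in 4 panels for carriers, inner membrane import (Timm), outer membrane import (Tomm) and outer membrane channels (Vdac). Filled points were detected and open ones were not; most points lie in the undetected band, and detected points reach their highest values on control replicate 2.

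Several genes of this group that most cells use were among the dim ones, and for them no comparison could be made. The only probe of Slc25a5, an ADP/ATP translocase, gave raw signals of 42.6 and 55.5 on the controls and of 41.1 and 40.9 on the microvesicle arrays, replicate 1 first here and below, and was detected on control replicate 2 alone. The phosphate carrier gene Slc25a3 had 2 probes, neither detected on both arrays of a group. They read 46.1, 47.8, 42.5 and 44.3, and 46.9, 41.9, 40.9 and 46.4, controls first. The channel gene Vdac1 read 38.5, 48.7, 45.2 and 39.6 in the same order, Vdac2 48.0, 43.5, 41.4 and 41.8, and Vdac3 37.4, 44.4, 44.5 and 38.4. Each channel was thus near the lowest detected signal, which was 44.2 to 46.4 on the 4 arrays, and the groups overlapped in Vdac1 and Vdac3. The same held for the core of the import pores. Tomm40, the pore of the TOM complex, Tomm22, its central receptor, and Tomm70a, a receptor for carriers, were detected on no array, and Tomm20, the presequence receptor, on microvesicle replicate 1 alone. In the same order the raw signals were 32.7, 40.9, 36.5 and 41.7 for Tomm40, 38.6, 43.2, 40 and 42.7 for Tomm22, 46.0, 41.7, 43.1 and 40.1 for Tomm70a, and 44.1, 45.2, 44.5 and 35.0 for Tomm20. On the inner membrane, the channel subunit genes Timm17a (38.4, 41.4, 39.4 and 39.6), Timm17b (43.7, 42.6, 36.9 and 40.1) and Timm22 were detected on no array. Of the 2 probes of Timm23, 1 (47.6, 41.5, 40.4 and 47.2) was detected on control replicate 1 and microvesicle replicate 2, and the other (45.2, 37.6, 39.5 and 39.2) on none. On arrays this dim a probe that is not detected does not show that the transcript was absent.

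No gene of the group passed the test. Of the 22 kept probes, limma called 0 higher and 0 lower with microvesicles after Benjamini-Hochberg adjustment over all kept probes, against 284 of all 3762 (7.55%), of which 129 were higher (3.43%) and 155 lower (4.12%). That split moved with the scaling, to 76 higher and 277 lower with kept-probe medians aligned. At an unadjusted p under 0.05 there were 5 of 22 (22.7%), beside 24.8% of all kept probes. The smallest adjusted p among the 22 was 0.0533. In normalized log2 signal the groups did not overlap in 14 of 22 probes, 5 higher and 9 lower, where the background was 57.5%, with 24.9% higher and 32.7% lower. The log2 fold changes ran from -0.69 to 0.78 with a median of -0.044, and that of all kept probes was -0.064. Of the 22, 10 lay above 0 (45.5%, against 44.0% of all kept probes), and 4 differed by at least 1.5-fold (18.2%, against 17.1%). Apart from the count called, each of these shares was near its background. That count of 0 rests on only 22 probes, the nearest of them just past the threshold. Its difference from 7.55% was not tested.

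**Figure D2:**
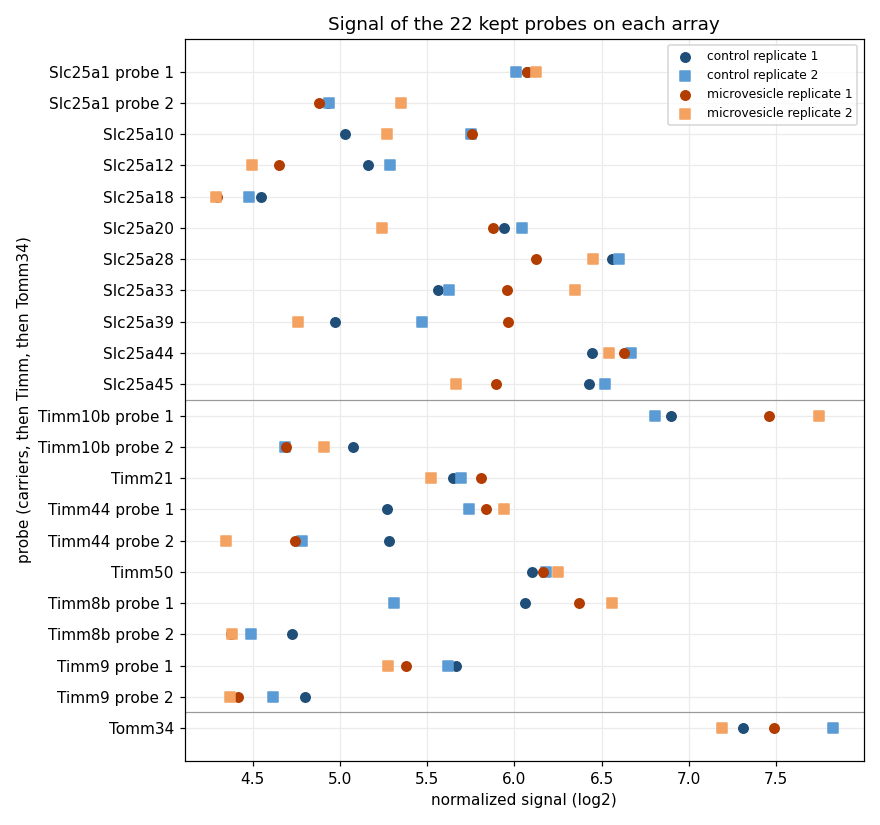
Normalized log2 signal of the 22 kept probes on the 4 arrays (circles replicate 1, squares replicate 2; blue controls, orange microvesicles), carriers on top, then Timm, then Tomm34. The groups lie apart most widely in Slc25a12, Slc25a45 and the first probe of Timm10b, and the arrays of 1 group differ most in Slc25a39.

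Among the carriers, 11 probes of 10 genes were kept, 6 of them above 0 and 5 below, with a median log2 fold change of 0.026. Lower values were found for Slc25a45 and Slc25a12. The raw signal of Slc25a45 was 99.3 and 181 on the controls, against 76.5 and 56.4 on the microvesicle arrays. Both microvesicle arrays lay below both controls, before and after normalization. After normalization the controls averaged 6.47 ± 0.06 on the log2 scale and the treated cells 5.78 ± 0.16 (SD, n = 2), 1.62-fold lower (log2 fold change -0.69, 95% interval -1.12 to -0.27, limma adjusted p = 0.0613). Slc25a12 encodes the calcium-regulated aspartate/glutamate carrier of the malate-aspartate shuttle. It read 57.8 and 81.5 in controls and 47.9 and 44.9 with microvesicles, and was not detected on microvesicle replicate 2. It was thus kept through the controls alone, which favours a lower value with microvesicles. Here too the groups lay apart on both scales, with a log2 fold change of -0.65 (95% interval -1.07 to -0.24, limma adjusted p = 0.0692). Neither difference passed the adjusted threshold.

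The opposite direction was found for Slc25a33, a pyrimidine nucleotide carrier. On the normalized log2 scale it read 5.56 and 5.63 in controls, against 5.96 and 6.35 with microvesicles, a log2 fold change of 0.56 (95% interval 0.10 to 1.02, limma adjusted p = 0.133). The normalized groups did not overlap, but the raw signals did, at 67.5 and 100 in controls and 78.5 and 70.9 with microvesicles.

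The fatty acid, iron and glutamate carriers had lower means that did not pass. Slc25a20, which brings acylcarnitines in for oxidation, had normalized log2 signals of 5.94 and 6.04 in controls and 5.88 and 5.24 with microvesicles (log2 fold change -0.43, limma adjusted p = 0.297). Most of that difference came from microvesicle replicate 2, and without it the log2 fold change was -0.12. Its other 2 probes were detected on no array. Slc25a28, mitoferrin 2, which imports iron, read 6.56 and 6.60 in controls against 6.13 and 6.45 (log2 fold change -0.29, 95% interval -0.73 to 0.15, limma adjusted p = 0.383), which was -0.13 without microvesicle replicate 1 and -0.47 without microvesicle replicate 2. Slc25a18, a glutamate carrier, read 47.8 and 48.5 in raw signal on the controls. Neither microvesicle array detected it (41.6 on both), so that its measured mean was at least 1.03-fold lower with microvesicles (limma adjusted p = 0.452). That bound sets each array's lowest detected signal in place of a dimmer one, and it leaves out the spread. The 95% interval of the log2 fold change ran from -0.62 to 0.18, and with kept-probe medians aligned the value was 0.19. The probe was kept through the controls alone, which favours a lower value with microvesicles.

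The remaining carriers gave small mean differences, though with unequal precision. The citrate carrier gene Slc25a1 had log2 fold changes of 0.061 (95% interval -0.34 to 0.46) and 0.18 (-0.30 to 0.67) on its 2 probes. Slc25a44, a carrier of branched-chain amino acids, had normalized log2 signals of 6.45 and 6.67 in controls and 6.63 and 6.54 with microvesicles, a log2 fold change of 0.026 (95% interval -0.39 to 0.45). A difference of 2-fold in normalized signal, in either direction, lies outside the intervals of these 3 probes. The offset added in processing makes the fold changes of dim probes smaller, such as the second probe of Slc25a1. A 2-fold change of the transcript is therefore not excluded by this. The dicarboxylate carrier gene Slc25a10 (0.12) and Slc25a39 (0.14), needed for glutathione import, had wide intervals, from -0.52 to 0.77 and from -0.72 to 0.997. In Slc25a39 the replicates went apart, at 4.97 and 5.47 in controls and 5.96 and 4.76 with microvesicles, so that both extremes were microvesicle arrays. Scaling by all-probe medians moved Slc25a1 to -0.63 and -0.26 and Slc25a44 to -0.75. The median standard error of the 22 kept probes was then 0.40, against 0.19 with quantiles. The limit of 2-fold in normalized signal therefore does not carry over to that scaling. Scaling by kept-probe medians gave -0.19 and 0.18 for Slc25a1 and -0.31 for Slc25a44.

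**Figure D3:**
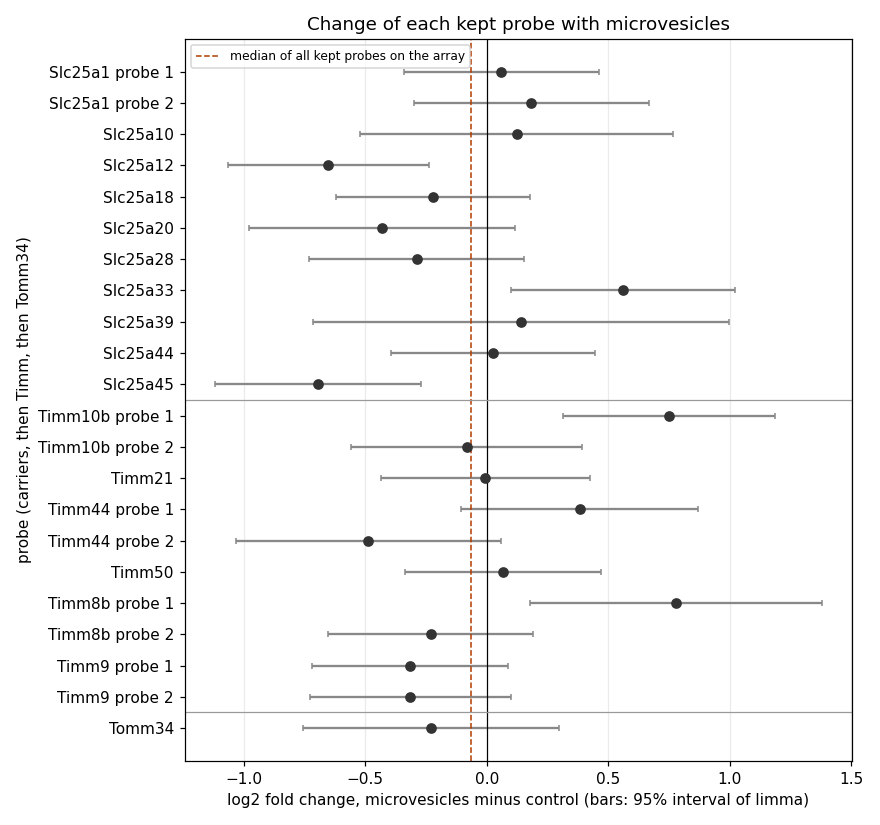
Log2 fold change of each kept probe, microvesicles minus control, with the 95% interval of limma as bars and the median of all kept probes as a dashed line. The intervals of Slc25a12, Slc25a45, Slc25a33, Timm10b probe 1 and Timm8b probe 1 leave out 0 before adjustment, and 0 of the 22 passed after it.

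Of the Timm genes, 10 probes of 6 genes were kept, 4 above 0 and 6 below, with a median log2 fold change of -0.044. The largest positive log2 fold changes of the whole group were found among the small Tim chaperones. Timm10b, which works with the TIM22 complex, gave on its first probe raw signals of 129 and 219 on the controls, against 167 and 136 on the microvesicle arrays. The raw groups overlapped. After normalization the controls averaged 6.85 ± 0.07 on the log2 scale and the treated cells 7.60 ± 0.21 (SD, n = 2), 1.68-fold higher (log2 fold change 0.75, 95% interval 0.32 to 1.19, limma adjusted p = 0.0533). Timm8b, another small Tim, read on its first probe 84.6 and 82.6 in controls and 96.1 and 76.4 with microvesicles. Its normalized log2 signals were 6.06 and 5.31 against 6.37 and 6.56, a log2 fold change of 0.78 (95% interval 0.18 to 1.38, limma adjusted p = 0.115). The controls lay further apart than the microvesicle arrays, and without control replicate 2 the log2 fold change was 0.36, without control replicate 1 1.17.

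Other probes of the same genes did not follow. The second kept probe of Timm10b had normalized log2 signals of 5.08 and 4.69 in controls and 4.69 and 4.91 with microvesicles, a log2 fold change of -0.082 (95% interval -0.56 to 0.39), and a further probe was detected on no array. The second probe of Timm8b was detected on the controls alone and was kept through them. Its measured mean was at least 1.11-fold lower with microvesicles (log2 fold change -0.23, 95% interval -0.65 to 0.19, limma adjusted p = 0.456). With kept-probe medians aligned its log2 fold change was 0.18. All probes of a gene named in this paragraph carry the same RefSeq accession in the platform annotation, and the difference between them was not tested.

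Timm9, the partner of Timm10 in the chaperone that shields carriers on their way, had 2 kept probes, both below 0, though the second was at 0.061 with kept-probe medians aligned. The first had normalized log2 signals of 5.66 and 5.62 in controls and 5.38 and 5.27 with microvesicles (log2 fold change -0.32, 95% interval -0.72 to 0.09, limma adjusted p = 0.301). The second was kept through the controls alone, since neither microvesicle array detected it. Its measured mean was at least 1.18-fold lower with microvesicles (log2 fold change -0.31, 95% interval -0.73 to 0.098, limma adjusted p = 0.313). The platform annotation ties these 2 probes to different transcripts of the gene. The only probe of Timm10 was detected on no array.

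The TIM23 pathway had 3 genes with kept probes. Timm44, which tethers the import motor to the channel, went both ways, with a log2 fold change of 0.38 on its first probe (5.27 and 5.74 in controls, 5.84 and 5.94 with microvesicles, limma adjusted p = 0.299) and of -0.49 on its second (5.28 and 4.78, 4.74 and 4.35, adjusted p = 0.246). In both probes the normalized groups lay apart, in opposite directions. The second was not detected on microvesicle replicate 2 and was kept through the controls alone. Without control replicate 1 the log2 fold changes of the first and second probe were 0.14 and -0.25. A further probe of Timm44 was detected on microvesicle replicate 1 alone and was not kept. Timm50, a receptor for presequences on the inner membrane, had log2 signals of 6.10 and 6.18 in controls and 6.16 and 6.25 with microvesicles, a log2 fold change of 0.066 (95% interval -0.34 to 0.47, adjusted p = 0.831). Timm21, a TIM23 subunit that also meets the respiratory chain, had a log2 fold change of -0.0051 (95% interval -0.44 to 0.43, adjusted p = 0.988) on 1 of its 4 probes, the other 3 not being kept.

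Of the Tomm genes only Tomm34 was kept, and it is the least typical of them, a cytosolic co-chaperone of heat shock proteins rather than a part of the pore. Its first probe had raw signals of 165 and 423 in controls and 170 and 101 with microvesicles. The normalized log2 signals, 7.31 and 7.82 in controls and 7.48 and 7.19 with microvesicles, overlapped, with a log2 fold change of -0.23 (95% interval -0.76 to 0.30, limma adjusted p = 0.552). About the outer membrane import pore itself these arrays therefore give no comparison.

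The raw signals show how far the direction of a gene rested on the scaling. In 12 of the 22 probes both microvesicle arrays were dimmer than both controls before normalization, and in 0 both were brighter. The same shares over all kept probes were 55.5% and 4.28%. The raw signal was highest on control replicate 2 in 18 of the 22 and lowest on microvesicle replicate 2 in 16 of the 22 (77.9% and 71.2% of all kept probes). When arrays were scaled to equal medians over all probes instead of by quantiles, the median log2 fold change of all kept probes was -0.39 and that of the 22 was -0.51. In that setting the first probe of Timm10b was at -0.13, Slc25a33 at -0.13 and Slc25a45 at -1.35, with 0 of 3762 probes called (398 at an unadjusted p under 0.05). The first probe of Timm8b (0.099) was the only 1 of the 22 that stayed above 0.

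A few of the near misses passed in other settings. The first probe of Timm10b passed with no background correction (limma adjusted p = 0.0311), with detection at p under 0.01 (0.0413) and with trend and robust estimation (0.0176). Slc25a45 passed with no background correction (0.0484), with kept-probe medians aligned (0.0288) and with trend and robust estimation (0.04). The first probe of Timm8b passed with trend and robust estimation (0.0261). In these settings more of all tested probes were called as well, beside 7.55% in the reported setting. The shares were 8.35% with no background correction and 9.38% with kept-probe medians aligned. They were 12.4% with detection at p under 0.01 and 15.8% with trend and robust estimation. No probe of the group passed with the submitters' processed values, with no detection filter or without any 1 of the arrays. Slc25a45 and Slc25a12 stayed below 0 and the first probe of Timm8b above 0 in every setting that was run. Slc25a20, Slc25a28, the first probe of Timm9 and the second of Timm44 also stayed below 0 throughout. A steady sign was thus not particular to the probes that came near the threshold.

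**Figure D4:**
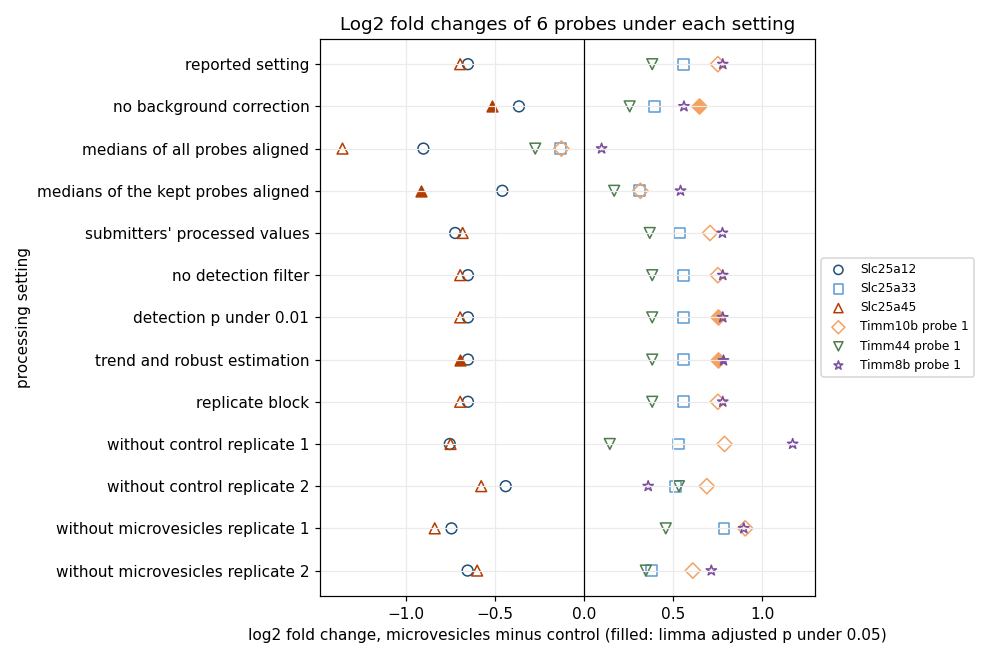
Log2 fold change, microvesicles minus control, of 6 probes under the processing settings named on the left, filled where limma's adjusted p was under 0.05. Slc25a45 and Slc25a12 lie below 0 in each of these, whereas Timm10b, Timm44 and Slc25a33 cross 0 with all-probe medians aligned.

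Proteins that work with these were looked at as a second list, which held the sorting, motor, relay and processing proteins of import and other small-molecule transporters of the mitochondrion. Of 29 genes on the array, 12 had kept probes, 17 in all, and limma called 0 of the 17 higher and 0 lower (3 at an unadjusted p under 0.05, 17.6%, against 24.8% of all kept probes). Mtch2, an outer membrane insertase related to the carriers, had normalized log2 signals of 7.12 and 7.90 in controls and 8.61 and 8.18 with microvesicles (log2 fold change 0.88, limma adjusted p = 0.104). Its relative Mtch1 stood at 0.70 in log2 fold change by 1 probe (adjusted p = 0.072) and at -0.36 by the other (adjusted p = 0.388). Tspo, a cholesterol-binding protein of the outer membrane, had log2 signals of 8.36 and 8.95 in controls and 8.12 and 7.86 with microvesicles on the probe with the largest difference (log2 fold change -0.66, adjusted p = 0.132). Both kept probes of Mtx1, of the sorting machinery of the outer membrane, lay above 0 (0.32 and 0.50), as did the relay gene Chchd4 (0.30) and the motor genes Hspa9 (0.29) and Pam16 (0.12). Hspa9 was detected on only 1 control and was kept through the microvesicle arrays. Below 0 lay the chaperonin genes Hspe1 (-0.39) and Hspd1 (-0.11) and both probes of Romo1 (-0.22 and -0.13). Hspe1, Hspd1 and the Romo1 probe at -0.22 were detected on the controls alone. In all, 8 of the 17 partner probes lay above 0 and 9 below.

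Other nuclear genes of the mitochondrion served as a yardstick. Of 51 kept probes of the respiratory chain and ATP synthase 3 were called higher and 0 lower, beside 3.43% and 4.12% of all kept probes, with 34 above 0, beside 44.0%, and a median log2 fold change of 0.27. Of 33 kept probes of mitochondrial ribosomal proteins 1 was called higher and 0 lower, with a median of -0.049. The median of the carrier and import probes (-0.044) was close to the latter and to that of all kept probes. These medians are descriptions, and the difference between the lists was not tested.

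The promoters of these genes were read for sequences that the choice of genes had not used. RefSeq (build GRCm38.p6) gave windows for 54 of the 65 genes, and the 250 bases before each start were searched on both strands, 66 windows in all. CCGGAAG, a binding sequence of ETS factors such as the one known for nuclear genes of the mitochondrion, was in 22.7% of them, against 8.98% of the windows of protein-coding genes and 16.9% of those of respiratory chain and ATP synthase genes. The binding sequence of NRF1 was in 4.55%, against 5.18% and 18.1%. AAGGTCA, bound by estrogen-related receptors, was in 4.55%, against 3.59% and 6.02%. CCAAT was in 36.4% against 35.4%, and CCATNTT, bound by YY1, in 6.06% against 11.2%. The shorter ETS core CGGAAG, which lies within the longer sequence and was added after the promoters had been seen, was in 31.8%, against 17.1% and 36.1%. The windows of 1 gene can overlap, and a match is only a match of letters.

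The windows of the 3 genes whose probes passed in some settings are shown, with matches to the ETS sequences and to AAGGTCA in capitals and the 5′ end first. They lie at chr7:105640195-105640444 (Timm10b, plus strand), chr9:50603651-50603900 (Timm8b, plus strand) and chr19:5877572-5877821 (Slc25a45, plus strand).
Timm10b: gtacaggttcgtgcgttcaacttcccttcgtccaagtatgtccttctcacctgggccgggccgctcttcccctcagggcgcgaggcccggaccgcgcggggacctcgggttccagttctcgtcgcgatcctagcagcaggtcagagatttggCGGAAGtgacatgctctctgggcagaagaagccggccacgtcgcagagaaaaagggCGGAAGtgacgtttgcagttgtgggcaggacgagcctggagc
Timm8b: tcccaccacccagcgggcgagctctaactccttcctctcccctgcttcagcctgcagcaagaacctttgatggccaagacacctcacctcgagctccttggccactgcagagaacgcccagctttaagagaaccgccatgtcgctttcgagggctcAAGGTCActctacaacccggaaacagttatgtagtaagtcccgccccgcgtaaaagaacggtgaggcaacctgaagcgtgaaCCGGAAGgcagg
Slc25a45: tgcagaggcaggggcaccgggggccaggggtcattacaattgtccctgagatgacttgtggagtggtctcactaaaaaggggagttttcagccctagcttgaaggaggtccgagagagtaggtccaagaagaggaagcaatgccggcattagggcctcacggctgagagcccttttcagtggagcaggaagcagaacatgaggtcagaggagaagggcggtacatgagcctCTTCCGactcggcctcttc
The Timm10b window held the core CGGAAG at 98 and 42 bases before the start, each followed by the same letters tgac. The Timm8b window held the full CCGGAAG at 12 bases and AAGGTCA at 94 bases before it. The Slc25a45 window held the core on the other strand, as CTTCCG, at 19 bases.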

How the data were processed

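Total RNA of 4 samples was amplified and hybridized, with Cy3 as the dye, to Illumina bead arrays, and BeadStudio 3.3 is the software in the submitters' processing notes. The deposited non-normalized table holds the intensity of each probe, the mean brightness of its beads with no background subtracted, the deposited detection p-value against the negative controls of the array, and the number and standard error of the beads, which were not used for a test. The deposited processed intensity values are background-subtracted on a linear scale, by a method not given in the sources used here, and served as an alternative.

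The analysis used limma 3.58.1 in R 4.3.3. Background was removed by the normal-exponential method, with the negative controls estimated from the detection p-values, and an offset of 16, quantile normalization and log2 followed. The offset makes the fold changes of dim probes smaller. Kept were the probes whose detection p was under 0.05 on both arrays of a group. Groups were taken from the sample titles and tested with lmFit and eBayes over all 3762 kept probes, in a two-sided test with no other covariate, adjusted by Benjamini-Hochberg over all of them, and called under 0.05. With 2 arrays a group the smallest exact permutation p is 0.333, so that test was not used. Intervals are the 95% intervals of the fit, not adjusted. The fit was tested on simulated data with known changes. Their noise was independent and drawn from the variances of this same fit, with no differences between arrays. That test therefore does not bear on the scaling of the real arrays.

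Platform annotation gave 1 symbol for 23978 probes and none for 1719, and all 97 probes of the group matched the RefSeq gene table by Entrez identifier, with 0 symbols differing. Promoter sequences are from RefSeq, GRCm38.p6. The members, the lists and the tests were chosen with earlier results of these data known. The values of each array were to be given for kept probes past the threshold, for the 3 largest differences and 3 brightest kept probes of each class, and for a listed set of carriers, channels, receptors and pore subunits. Slc25a4 was in that set but not among the probes examined. Other values were given by choice after they had been seen. Where a gene had several kept probes, the brighter is called the first. Levels of different probes were not compared. Alternatives covered the background correction, the scaling, the submitters' processed values, the detection filter, the variance estimate, a replicate block, each array left out and a stricter threshold.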

Additional observations from a re-analysis of the deposited data

How the results depend on the processing

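The crossed block, which joined control replicate 1 with microvesicle replicate 2 and control replicate 2 with microvesicle replicate 1, was added after the data had been seen, because same-numbered arrays deviated from their group means with a correlation of -0.13 over the 3762 kept probes. It gave 396 changed probes (10.5% of all kept), and of the 22 carrier and import probes 2 higher and 1 lower. With the replicate number of the labels as a block 313 probes changed, 0 of them of the group. The labels do not say what the numbers mark. Against 284 changed probes the count was 0 with all-probe medians aligned (398 unadjusted), 29 with no detection filter, 593 with trend and robust estimation, 67 at adjusted p under 0.01, and 0 to 10 with 1 array left out, where the lone array of a group is taken to vary as the other group does and the set of probes tested differs. Of the group, 1 of 22 probes was higher and 1 lower with no background correction, where 8.35% of all were called. With kept-probe medians aligned 1 of 22 was lower (9.38% of all called), and 1 of 20 was higher with detection p under 0.01 (12.4%). With trend and robust estimation 2 of 22 were higher and 1 lower (15.8%). With 1 array left out, 0 were called in either direction.

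With all-probe medians aligned, the median log2 fold change was -0.63 for carriers, -0.35 for inner membrane import and -1.12 for Tomm34, and with those of the kept probes aligned -0.19 for carriers, 0.096 for inner membrane import and -0.68 for Tomm34. With 1 array left out it ranged from -0.13 to -0.012 for carriers, from -0.031 to 0.083 for inner membrane import and from -0.50 to 0.043 for Tomm34. Of the 284 values of kept probes under the alternatives, 28 had the other sign, 10 passed where the reported value had not, and 246 kept their direction and side of the threshold. With all-probe medians aligned the other sign was found for Slc25a1 (-0.63 and -0.26), Slc25a10 (-0.44), Slc25a33 (-0.13), Slc25a39 (-0.28), Slc25a44 (-0.75), Timm10b probe 1 (-0.13), Timm44 probe 1 (-0.27) and Timm50 (-0.66). With those of the kept probes aligned it was found for Slc25a1 probe 1 (-0.19), Slc25a18 (0.19), Slc25a44 (-0.31), Timm10b probe 2 (0.13), Timm50 (-0.22), Timm8b probe 2 (0.18) and Timm9 probe 2 (0.061). With 1 array left out, values ranged from -0.24 to 0.41 for Slc25a10, from -0.47 to 0.79 for Slc25a39, from -0.088 to 0.13 for Slc25a44, from -0.062 to 0.42 for Slc25a1 probe 2, from -0.22 to 0.12 for Timm10b probe 2 and from -0.15 to 0.14 for Timm21. The cause of these differences was not tested. Signals near the background limit every value of the dim probes.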
